A study of Mus musculus with 816 samples.

Results

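Resveratrol, a plant polyphenol, was added to microglia that received a low dose of LPS, and the 8 cultures treated this way were compared gene by gene with 7 cultures given the same dose of LPS alone. They are 15 of the 816 samples of the series and of its 418 cultures at 24 h, and they were chosen by the treatment and the time on their labels, not by any measured value. LPS_lo stands for LPS at 0.00001 ug/ul, a dose that both groups carry, for 24 h. The labels give no dose of resveratrol in the mixture, whereas resveratrol alone was given at 50 uM. The other groups at 24 h were 40 untreated cultures (labelled None), 11 with resveratrol alone, 7 with LPS_lo + rapamycin and 7 with LPS_lo + CCL2. Each group with LPS_lo came from 2 plates and 2 lots of cells. The untreated cultures came from 6 plates and 3 lots, and those with resveratrol alone from 4 plates and 3 lots. Every culture was a single well of purchased primary microglia of newborn mice, and its RNA was made into a 3′-end sequencing library.

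Microglia are the resident macrophages of the brain. LPS, a component of the outer membrane of Gram-negative bacteria, is presented by CD14 to the receptor TLR4, which signals through different adaptors. MyD88 leads to the transcription factor NF-kB and to early cytokines such as TNF. TRIF leads to the transcription factor IRF3 and to interferon beta, which is secreted and acts back on the cell through its own receptor. That signal acts at interferon-stimulated response elements in promoters and switches on a large set of antiviral genes. Resveratrol is used as an anti-inflammatory agent and has been linked to the deacetylase SIRT1 and to the antioxidant factor NRF2.

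The promoters of antiviral genes that fell with resveratrol show where such elements lie. The 6 members of the list of type I interferon-stimulated antiviral genes with the largest called falls were Slfn1, Trim30d, Cmpk2, Phf11b, Oas2 and Bst2. For 5 of them the RefSeq table of build GRCm38.p6 held a window from 250 bases before to 50 bases after an annotated transcription start. The windows are Slfn1 at chr11:83116570-83116869 on the plus strand, Trim30d at chr7:104507800-104508099 on the minus strand, Cmpk2 at chr12:26468965-26469264 on the plus strand, Phf11b at chr14:59341281-59341580 on the minus strand and Bst2 at chr8:71537423-71537722 on the minus strand. Each is written 5′ to 3′ along the gene's strand, and capitals mark a match to the core of the interferon-stimulated response element, a pair of GAAA boxes with any 2 bases between them, on either strand.
Slfn1: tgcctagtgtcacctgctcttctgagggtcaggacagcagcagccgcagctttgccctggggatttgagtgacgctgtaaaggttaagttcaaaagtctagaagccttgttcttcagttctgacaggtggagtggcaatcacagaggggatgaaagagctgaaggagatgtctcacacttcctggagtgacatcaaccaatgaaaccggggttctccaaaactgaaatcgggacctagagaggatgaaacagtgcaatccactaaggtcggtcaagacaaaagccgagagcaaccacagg
Trim30d: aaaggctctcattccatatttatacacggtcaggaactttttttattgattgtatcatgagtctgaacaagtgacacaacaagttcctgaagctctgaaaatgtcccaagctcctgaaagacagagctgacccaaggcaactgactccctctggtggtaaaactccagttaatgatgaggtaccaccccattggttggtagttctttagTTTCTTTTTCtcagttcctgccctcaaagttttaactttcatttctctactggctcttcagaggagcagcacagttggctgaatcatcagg
Cmpk2: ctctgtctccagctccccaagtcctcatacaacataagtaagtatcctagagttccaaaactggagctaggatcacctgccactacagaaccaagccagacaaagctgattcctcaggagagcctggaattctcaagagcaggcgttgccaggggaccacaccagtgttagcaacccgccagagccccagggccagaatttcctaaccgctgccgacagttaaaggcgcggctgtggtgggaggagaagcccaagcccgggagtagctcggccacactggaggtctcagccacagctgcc
Phf11b: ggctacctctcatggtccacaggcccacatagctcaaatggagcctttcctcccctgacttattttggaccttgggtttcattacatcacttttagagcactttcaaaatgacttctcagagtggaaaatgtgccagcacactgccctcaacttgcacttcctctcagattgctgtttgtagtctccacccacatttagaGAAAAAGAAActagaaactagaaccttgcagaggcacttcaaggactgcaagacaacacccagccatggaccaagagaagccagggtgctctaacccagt
Bst2: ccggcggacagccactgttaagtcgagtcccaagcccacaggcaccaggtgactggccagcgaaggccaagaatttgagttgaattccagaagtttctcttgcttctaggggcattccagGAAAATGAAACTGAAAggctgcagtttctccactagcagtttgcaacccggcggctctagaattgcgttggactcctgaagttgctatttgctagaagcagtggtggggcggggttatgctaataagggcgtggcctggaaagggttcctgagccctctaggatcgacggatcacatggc
Trim30d held 1 match on the opposite strand, starting 41 bases before the start site. Phf11b held 1 match 50 bases before it, and Bst2 held 2 overlapping matches whose first bases lay 130 and 124 bases before it. These letters were not found in the windows of Slfn1 and Cmpk2. The core was present in 943 of 27025 promoters of all genes (3.49%) and in 278 of 8636 promoters of the genes tested (3.22%), against 19 of the 34 promoters found for the antiviral list (55.9%). Among the genes called lower with resveratrol it was present in 21 of 118 promoters (17.8%), and among those called higher in 4 of 186 (2.15%). In the interferon class, defined further below from cultures without LPS, it was present in 51 of 253 promoters (20.2%), whether or not resveratrol changed the gene. Among members of that class called lower it was present in 15 of 55 (27.3%). A match is a run of letters and was not tested as a binding site.

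Levels are given as CPM, reads of a gene scaled to the mapped reads of its culture, and differences as log2(CPM + 1) ± SE from limma with Benjamini-Hochberg adjustment over 12176 genes. A gene was called at an adjusted p under 0.05. Depth, estimated from the step between low CPM values, was 2.12 M to 18.9 M reads (median 2.83 M) with LPS_lo and 2.35 M to 12.4 M (median 8.63 M) with LPS_lo + resveratrol. Both groups sat on the same 2 culture plates, with 3 and 4 wells on plate 1 and 4 and 4 wells on plate 2, and the plates held different lots of cells. On each plate, however, the library pools of the 2 groups differed, so pool and treatment cannot be told apart by a direct comparison. Untreated wells lay in both pools of each plate. Between those of the resveratrol pools (10 cultures) and those of the LPS_lo pools (8 cultures), 25 of 10285 genes were called (0.243%). A fit to all 418 cultures at 24 h with the pool as a term, which uses such shared groups, is given beside the main results. The same term was also fitted to the cultures of these 2 plates alone. LPS_lo replicate 4, the deepest library of its group, and LPS_lo + resveratrol replicate 8 had the lowest scores for interferon-responsive genes of their groups. The p-values rest on the spread between wells of the same group, pooled over the 80 cultures of 6 groups. The main fit held no term for plate or lot, so this spread includes differences between plates and lots. In bulk RNA, a change in the number of cells of a kind and a change in RNA per cell cannot be told apart.

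With resveratrol, genes of the interferon arm of the LPS response fell, and some lipid, antioxidant and microglial genes rose. The rises were less stable. With the pool term on the 2 plates alone, 28 of 47 antiviral genes were called lower. There, 4 of 20 genes of cholesterol synthesis, 3 of 27 NRF2 targets and 0 of 22 genes of resting microglia were called higher. None of the 23 genes in the NF-kB list was called, and Tnf was not called either. Other LPS-induced genes outside that list, such as Ccl2 and Nos2, were called lower. Il1rn, which encodes the antagonist of the interleukin-1 receptor, showed the largest fall among genes whose cultures did not overlap, by 3.64 on the log2 scale. Tcaf1 rose by 3.13, and Sort1, which encodes the sorting receptor sortilin, by 2.56. Across the genes tested, 244 were called higher (2.00%) and 164 lower (1.35%), and in 79 of these (34 higher, 45 lower) with a mean of at least 5 CPM the cultures of the groups did not overlap. With the library pool as a term, 523 genes were called higher (3.62%) and 342 lower (2.37%) of 14433 tested. The median difference over all genes was 0.12, and after each culture was scaled to the same median it was -0.03. That scaling gave 162 genes higher and 290 lower, so the share of rises depends on the scaling, and gene groups are read against the median of all genes.

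**Figure D1:**
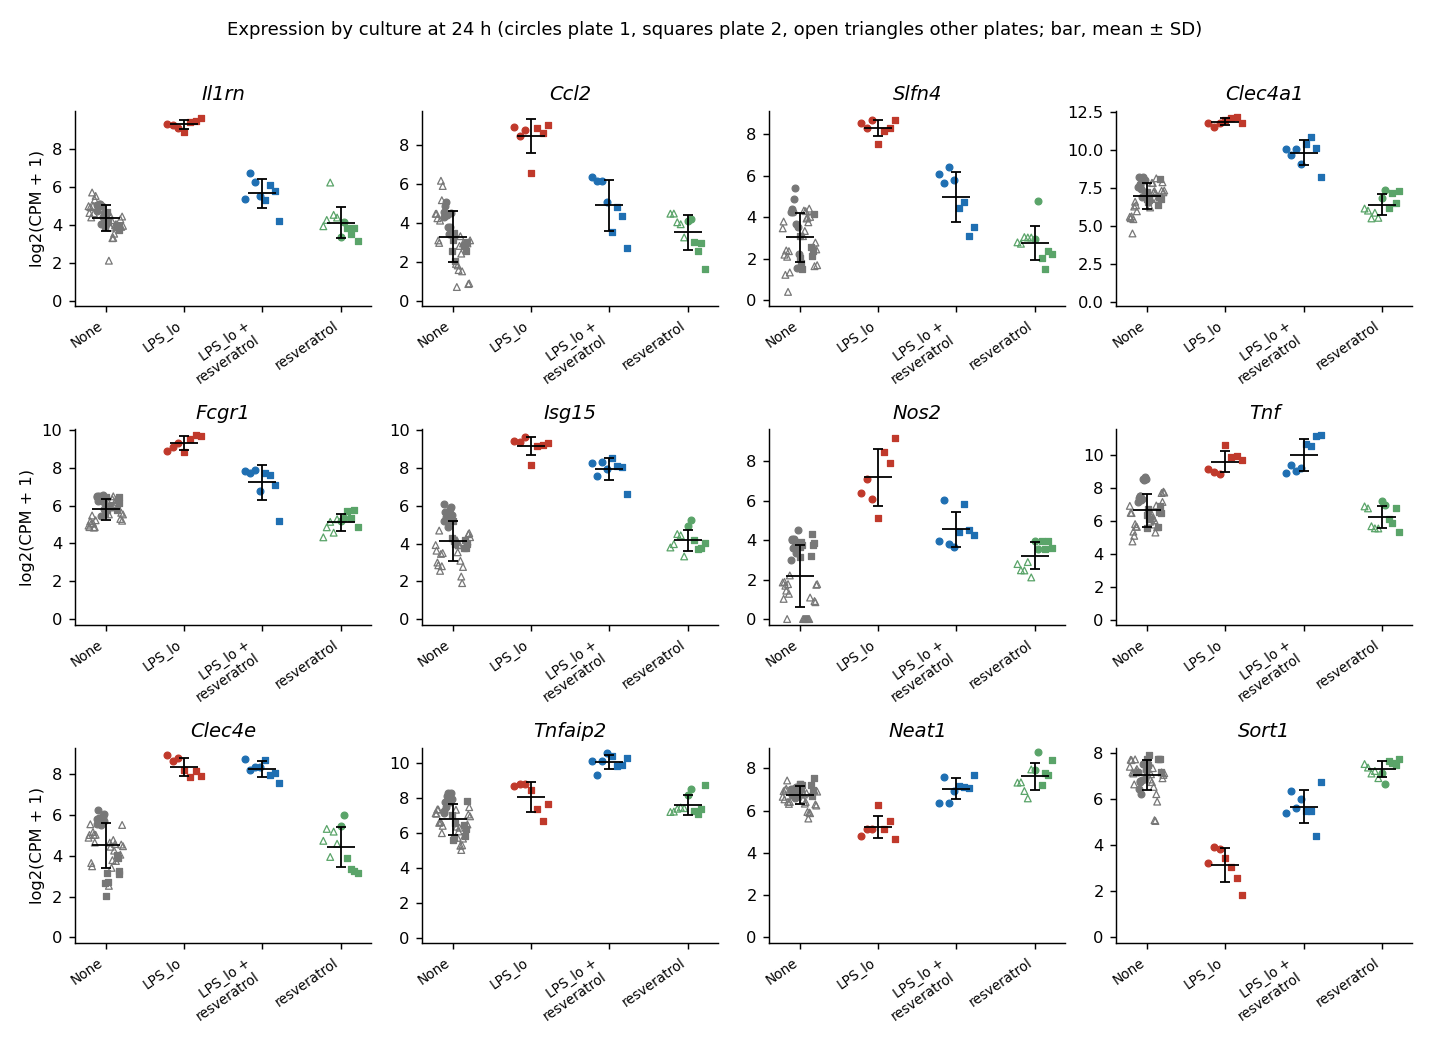
Level as log2(CPM + 1) of 12 genes in every untreated, LPS_lo, LPS_lo + resveratrol and resveratrol culture at 24 h. Circles are cultures of plate 1, squares of plate 2 and open triangles of other plates, and bars give the mean ± SD. All 8 LPS_lo + resveratrol cultures lie below all 7 LPS_lo cultures for Il1rn (17.2 to 106 against 480 to 788 CPM), while the groups overlap for Tnf and Clec4e.

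The secreted products of LPS-treated microglia were affected unevenly. Il1rn was at 480, 630 and 788 CPM (lowest, median and highest) with LPS_lo and at 17.2, 49.7 and 106 CPM with LPS_lo + resveratrol. The groups lay far apart, and the untreated median was 19.3 CPM. The difference was -3.64 ± 0.34 (adjusted p = 1.5e-13, limma) and -3.52 with the pool term. Ccl2, the main chemoattractant of monocytes, was at 92.3, 431 and 520 CPM with LPS_lo and at 5.61, 29.97 and 79.7 CPM with resveratrol, without overlap. It fell by 3.56 ± 0.59 (adjusted p = 3.86e-05, limma). Its lowest LPS_lo value came from replicate 4. The neighbouring monocyte chemokines Ccl7 and Ccl12 fell by 3.36 and 3.08, and their cultures overlapped. Because Ccl2, Ccl7 and Ccl12 are similar in sequence, the split of reads among them is uncertain.

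Over the whole list of 18 chemokines, 5 were called lower (Ccl2, Ccl7, Ccl12, Cxcl11 and Ccl9) and none higher, with a median difference of -0.79, and the pool term gave 9 lower. Cxcl11, a ligand of the chemokine receptor CXCR3, fell by 2.22, and Ccl9, a macrophage chemokine, fell by 0.83. The chemokine Ccl5 was at 14068, 15889 and 25830 CPM with LPS_lo and at 3749, 9068 and 24917 CPM with resveratrol, and the ranges overlapped. Its difference was -0.82 ± 0.61 (adjusted p = 0.539, limma), and -1.41 (adjusted p = 0.000814) with the pool term, while the untreated cultures differed between the same pools by 0.59. Cxcl10, another CXCR3 ligand, was at 105, 225 and 320 CPM and at 30.5, 48.1 and 159 CPM, with a difference of -1.98 that did not pass (adjusted p = 0.105, limma). Its adjusted p was 0.0311 with the pool term and 0.196 with that term on the 2 plates alone.

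Among 15 inflammatory cytokines, 2 were called lower (Il1rn and Il18) and none higher, and the median was -0.67. Il18, which encodes a cytokine released by inflammasomes, was at 14.1, 18.7 and 45.3 CPM with LPS_lo and at 0, 4.37 and 12.9 CPM with resveratrol. The groups did not overlap, and the difference was -2.29 ± 0.43 (adjusted p = 0.000313, limma). Tnf was at 461, 830 and 1552 CPM with LPS_lo and at 478, 1085 and 2404 CPM with resveratrol. The ranges overlapped, with the highest values in the resveratrol group, and the difference was 0.43 ± 0.45 (adjusted p = 0.703, limma). Il1b, the precursor of interleukin-1 beta, was at 206, 330 and 638 CPM and at 46.1, 115 and 329 CPM, with a difference of -1.60 (adjusted p = 0.216, limma) that passed with the pool term (-1.86, adjusted p = 0.000304). Il6 was low in both groups, with medians of 9.42 and 7.45 CPM, and its difference was -0.31 (adjusted p = 0.829, limma). The interferon gene Ifnb1 was listed at 0 as the median of both groups, with a highest value of 3.19 CPM with LPS_lo and 0.998 CPM with resveratrol, and was not tested.

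Interferon-stimulated antiviral genes, the longest of the pathway lists, held the most called falls by number. Of the 47 list members, 13 were called lower (27.7%) and none higher, with a median of -1.05, and 46 lay below the median of all genes. The share called lower was 27.8% for chemokines and 26.7% for the GTPase list. The pool term gave 31 lower and none higher. Phf11b was at 1120, 1558 and 2953 CPM with LPS_lo and at 266, 601 and 772 CPM with resveratrol. The groups did not overlap, and it fell by 1.69 ± 0.30 (adjusted p = 0.000174, limma). Slfn1, of the Schlafen family, was at 81.6, 177 and 395 CPM and at 5.87, 56.9 and 149 CPM, with overlap, and fell by 2.42 ± 0.60 (adjusted p = 0.00973, limma). Bst2, which encodes the virus-tethering protein tetherin, was at 467, 816 and 1288 CPM and at 156, 275 and 603 CPM, and fell by 1.44 ± 0.35 (adjusted p = 0.00712, limma). Phf11b, Trim30d and the Schlafen genes have close copies in the genome, and reads of such copies may be assigned to either.

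Further called members were Trim30d (-2.03), the mitochondrial nucleotide kinase Cmpk2 (-1.94), the RNA sensor product Oas2 (-1.60), the nucleic acid sensor Zbp1 (-1.43), the interferon feedback protease Usp18 (-1.25) and the RNA sensor Ddx58, also called RIG-I (-1.13). Several of the best known members did not pass. Isg15, a ubiquitin-like modifier, was at 281, 630 and 787 CPM with LPS_lo and at 97.7, 271 and 365 CPM with resveratrol, with a difference of -1.23 ± 0.42 (adjusted p = 0.0874, limma). Only the lowest LPS_lo culture, replicate 4, lay within the resveratrol range. Rsad2, or viperin, had a difference of -1.66 (adjusted p = 0.077), and the GTPase Mx1 one of -1.63 (adjusted p = 0.0653), both in limma. Ifit3 was at 1327, 2643 and 3614 CPM and at 679, 1115 and 1915 CPM, with a difference of -1.09 (adjusted p = 0.219, limma). With the pool term Isg15, Rsad2, Mx1 and Ifit3 were all called lower, with adjusted p of 0.045, 0.00106, 0.000707 and 0.00682.

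Other interferon-responsive lists held fewer calls. Of 15 guanylate-binding proteins and immunity-related GTPases, which attack vacuoles that hold pathogens, 4 were called lower (Tgtp2, Iigp1, Ifi47 and Igtp, by 1.21 to 2.73) and none higher, and the median was -0.98. Of 18 genes of MHC class I antigen presentation, 2 were called lower. They were Tap1, a subunit of the peptide transporter, which went from 124, 208 and 243 CPM to 35.6, 80.6 and 104 CPM without overlap (-1.49 ± 0.31, adjusted p = 0.00146, limma), and Nlrc5, the transactivator of these genes (-1.52). The heavy chain gene H2-K1 had a difference of 0.01. Of 22 genes of interferon signalling, 1 was called lower (Stat3, -1.03) and none higher, and the median was -0.18. Irf7, the master regulator of later interferon genes, had a difference of -0.42 (adjusted p = 0.745, limma), with medians of 1184 and 972 CPM.

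**Figure D2:**
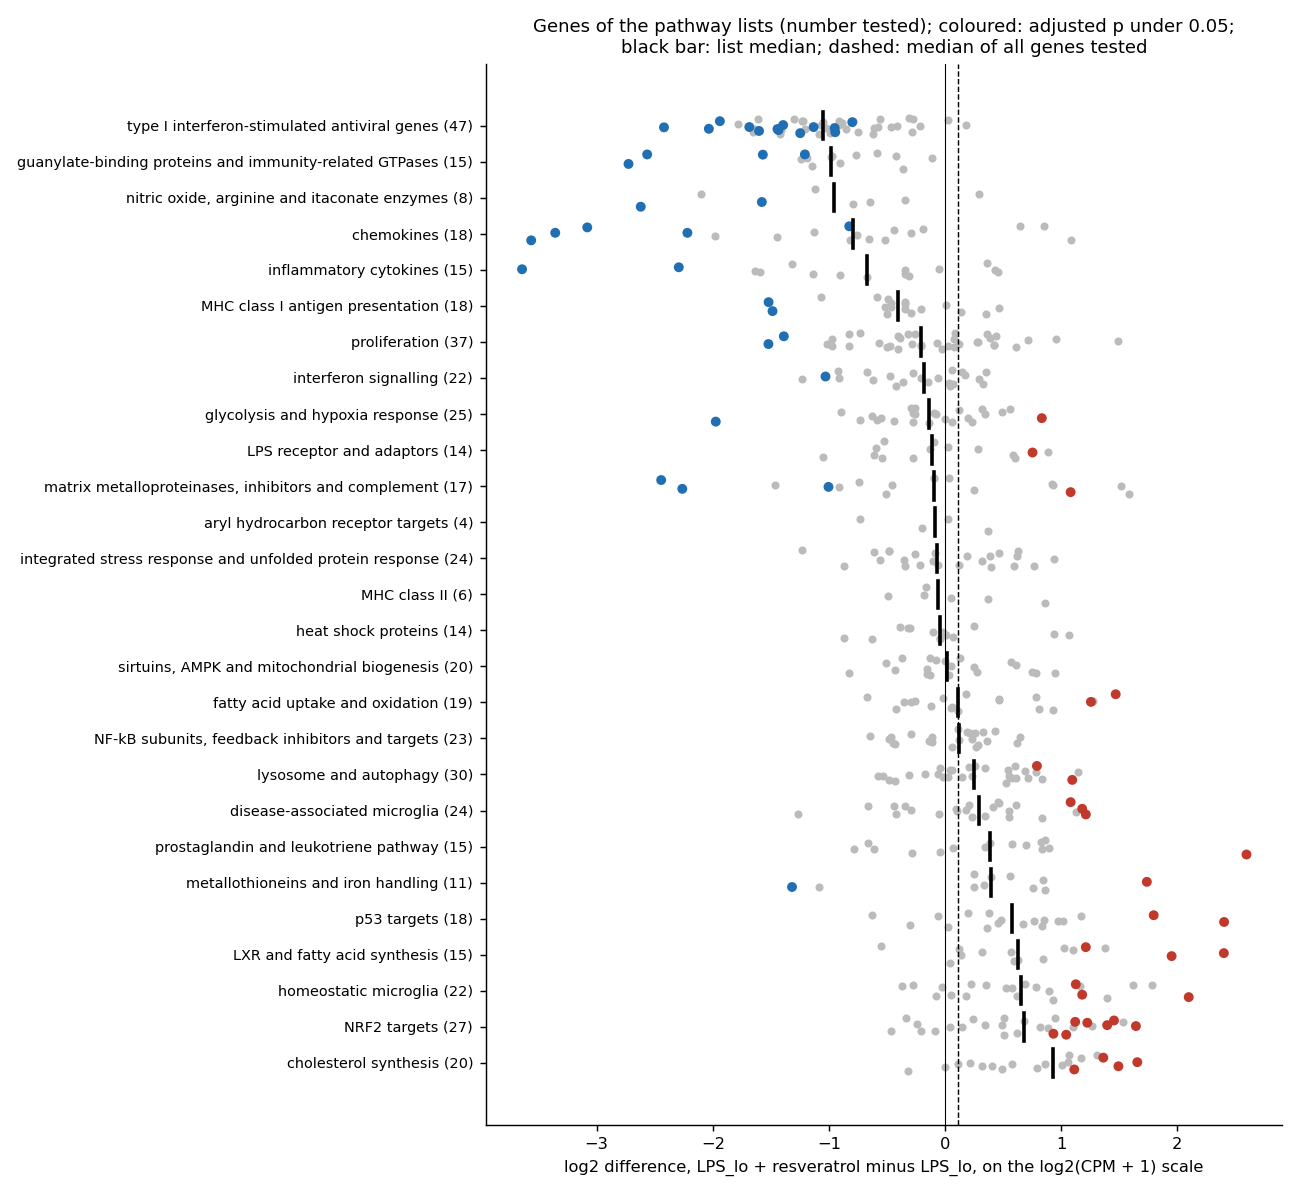
Log2 differences between LPS_lo + resveratrol and LPS_lo for the members of each gene list, with called genes marked and the median of each list drawn beside the median of all 12176 genes (0.12). The antiviral list (median -1.05) and the GTPase list (-0.98) lie lowest, and cholesterol synthesis (0.93) lies highest among the pathway lists.

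Nos2, the inducible nitric oxide synthase, was at 33.5, 133 and 565 CPM with LPS_lo and at 11.4, 19.1 and 63.5 CPM with resveratrol. The groups overlapped at the low end of LPS_lo, and the difference was -2.62 ± 0.68 (adjusted p = 0.0142, limma). The call was lost without LPS_lo replicate 7 and in an exact rank-sum test. In its list of 8 enzymes of nitric oxide, arginine and itaconate metabolism, the arginine transporter Slc7a2 was also called (-1.58), none was called higher, and the median was -0.96. Irg1, the itaconate enzyme, went from a median of 413 to 187 CPM without passing (-1.12, adjusted p = 0.316, limma). The glycolytic regulator Pfkfb3 fell by 1.97, from 208, 431 and 603 CPM to 39.8, 101 and 197 CPM, and its groups did not overlap. In its list of 25 glycolysis and hypoxia genes, 1 was called lower and 1 higher (Aldoa, 0.83), with a median of -0.14.

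Surface receptors for antibodies and microbes included called falls without overlap. Fcgr1, the high-affinity receptor for IgG, was at 455, 634 and 856 CPM with LPS_lo and at 35.2, 200 and 230 CPM with resveratrol, a fall of 2.08 ± 0.29 (adjusted p = 1.26e-06, limma). The C-type lectin receptor Clec4a1 was at 2868, 3557 and 4670 CPM and at 304, 1079 and 1872 CPM, a fall of 2.06 ± 0.37 (adjusted p = 0.000212, limma). In neither gene did the groups overlap, and in both the lowest resveratrol culture was replicate 8. Msr1, a scavenger receptor, fell by 1.59 ± 0.20, from 1124, 1231 and 1539 CPM to 200, 456 and 819 CPM. Slfn4, a Schlafen gene, went from 180, 312 and 408 CPM to 7.63, 36.6 and 83.1 CPM (-3.34 ± 0.51, adjusted p = 8.84e-06, limma), while the untreated cultures of the same pools differed by 1.33 in the opposite direction without a call. Mlkl, which executes necroptosis, fell by 2.41, Thbs1, a matrix glycoprotein, by 2.27, and Sirpb1c, a signal-regulatory protein, by 2.20, each without overlap. Of 17 matrix metalloproteinases, inhibitors and complement genes, Serping1 (-2.45), Mmp13 (-2.26) and the complement receptor subunit Itgam (-1.0) were called lower and Timp2 (1.08) higher.

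The NF-kB list held no call. Of its 23 subunits, feedback inhibitors and targets 0 passed in limma in either direction, and its median was 0.12, equal to that of all genes. The plates differed in sign, with a median of -0.23 and 1 member lower on plate 1 and a median of 0.36 and 1 member higher on plate 2. At an unadjusted p under 0.05, 2047 of all genes passed in this comparison. Nfkbia, the feedback inhibitor of NF-kB, was at 543, 633 and 749 CPM with LPS_lo and at 237, 498 and 652 CPM with resveratrol (-0.45, adjusted p = 0.365, limma). Irak3, a brake on TLR signalling, had a difference of -0.48 (adjusted p = 0.422). Clec4e, a lectin receptor induced by LPS, was at 233, 298 and 495 CPM and at 187, 311 and 430 CPM, with overlap and a difference of -0.11 (adjusted p = 0.947, limma). With the pool term, 1 member of the list was called lower, the mitochondrial dismutase Sod2 (-0.77). Of 14 genes of the LPS receptor and its adaptors, 1 was called higher, the kinase Irak1 (0.75), and none lower. Cd14 and Tlr4 had differences of 0.89 and -0.55 and did not pass. Ptgs2, or cyclooxygenase-2, was at a median of 22.4 and 9.31 CPM (-0.66, adjusted p = 0.613).

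Some genes of lipid metabolism rose. Of 20 genes of cholesterol synthesis, 4 were called higher and none lower, with a median of 0.93, and 8 were called higher with the pool term. Msmo1, which encodes a methylsterol oxidase, was at 57.8, 73.5 and 95.5 CPM with LPS_lo and at 95.3, 226 and 303 CPM with resveratrol, and rose by 1.36 ± 0.28 (adjusted p = 0.00142, limma). The ranges touched at their edges, and the untreated median was 215 CPM. The other calls were mevalonate kinase Mvk (1.66), squalene synthase Fdft1 (1.49) and Srebf2, the transcription factor that drives this pathway (1.11). Of 15 genes of LXR signalling and fatty acid synthesis, Mylip (2.40), which targets the LDL receptor for degradation, fatty acid synthase Fasn (1.95) and the lipid carrier Apoe (1.21) rose and none fell. Apoe was at 4400, 7544 and 10387 CPM with LPS_lo and at 12030, 15633 and 22688 CPM with resveratrol, without overlap. With the pool term its difference was 0.59 (adjusted p = 0.00808), and the untreated cultures differed between the pools by 0.55.

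Of 27 NRF2 targets, which protect cells from oxidants, 7 were called higher and none lower, with a median of 0.68. The pool term gave 6 higher, and on the 2 plates alone it gave 3 higher. Nfe2l2, the gene of NRF2 itself, was at 13.9, 27.4 and 39.3 CPM with LPS_lo and at 59.3, 70.4 and 78.8 CPM with resveratrol. The groups did not overlap, and the rise was 1.45 ± 0.30 (adjusted p = 0.00142, limma). It was 0.86 with the pool term, and the untreated cultures of those pools differed by 0.72. Srxn1, which encodes sulfiredoxin, rose by 1.64, ferritin light chain Ftl1 by 1.40, thioredoxin reductase Txnrd1 by 1.22, transaldolase Taldo1 by 1.12, catalase Cat by 1.04 and G6pdx, the entry enzyme of the pentose phosphate pathway, by 0.93. With the pool term the differences of Cat (0.80, adjusted p = 0.113) and G6pdx (0.27, adjusted p = 0.389) did not pass. The classic targets Hmox1 (-0.46, adjusted p = 0.46) and Nqo1 (1.54, adjusted p = 0.16) did not pass in limma. Nqo1 had a median of 0 CPM with LPS_lo and 4.79 CPM with resveratrol. The list's score was highest in resveratrol replicate 8.

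Genes typical of resting microglia included called rises. Of 22 homeostatic genes, 3 were called higher and none lower, with a median of 0.65. The pool term gave 7 higher, and on the 2 plates alone it gave 0 higher, so that P2ry13, Csf1r and Trem2 lost their calls there (adjusted p = 0.0832, 0.0768 and 0.214, limma). P2ry13, a purine receptor, was at 0.686, 5.30 and 18.5 CPM with LPS_lo and at 6.62, 42.0 and 67.9 CPM with resveratrol (2.10 ± 0.53, adjusted p = 0.0117, limma), with overlap. Csf1r, the receptor that microglia need to survive, was at 568, 859 and 2217 CPM and at 2180, 2381 and 2843 CPM (1.13 ± 0.31, adjusted p = 0.022, limma), and the ranges overlapped only at their edges. The lipid receptor gene Trem2 rose by 1.18. The untreated medians of P2ry13, Csf1r and Trem2, 78.0, 3927 and 807 CPM, were above those of both LPS groups. Tmem119 (1.62), Cx3cr1 (0.79) and P2ry12 (-0.37) did not pass. Of 24 genes of disease-associated microglia, Apoe, Trem2 and Timp2 were called higher and none lower, with a median of 0.29, and the pool term gave 7 higher and 1 lower.

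The rises with no overlap were led by genes outside these lists. Tcaf1, a partner of an ion channel, was at 0, 0.455 and 2.01 CPM with LPS_lo and at 4.24, 12.7 and 23.6 CPM with resveratrol (3.13 ± 0.48, adjusted p = 8.84e-06, limma). Bmf, a promoter of apoptosis, rose by 2.75, and the unnamed locus AL670236.1 by 3.45. Sort1 was at 2.47, 8.20 and 13.7 CPM and at 19.5, 45.5 and 104 CPM (2.56 ± 0.37, adjusted p = 2.8e-06, limma), against an untreated median of 141 CPM. Neat1, a long noncoding RNA of nuclear paraspeckles, was at 23.8, 33.7 and 74.9 CPM and at 80.2, 135 and 203 CPM, a rise of 1.81 ± 0.25 (adjusted p = 8.53e-07, limma). These genes had been lower with LPS_lo than in untreated cultures. Tnfaip2, a TNF-inducible gene, differed from them. It was at 101, 357 and 453 CPM with LPS_lo and at 642, 1109 and 1545 CPM with resveratrol (2.00 ± 0.42, adjusted p = 0.00142, limma), above the untreated median of 112 CPM. The lipid transporter Abca2 (2.13), the kinase Map4k2 (1.97), B930041F14Rik (2.34) and the magnesium transporter Slc41a3 (1.71) completed the largest rises. Map4k2 and Slc41a3 lost their calls with the pool term on the 2 plates alone (adjusted p = 0.146 for both, limma) and against LPS_lo + CCL2. In LPS_lo the levels of Tcaf1, Bmf, AL670236.1 and B930041F14Rik rest on few reads.

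The remaining lists held few calls. The p53 list of 18 genes had 2 higher (Trp53inp1, 2.40, and Phlda3, 1.80), and its best known target Cdkn1a, a brake on the cell cycle, had a difference of 0.37 (adjusted p = 0.856, limma). In the list of 37 proliferation genes, the replication helicase subunits Mcm2 (-1.52) and Mcm6 (-1.39) were called lower, and with the pool term 0 of the list were called. Of 15 prostaglandin and leukotriene genes, leukotriene C4 synthase Ltc4s was called higher (2.59). Of 11 genes of metallothioneins and iron handling, the iron exporter Slc40a1 rose by 1.74 and ceruloplasmin Cp fell by 1.32. Of 30 lysosome and autophagy genes 2 were higher, as were 2 of 19 of fatty acid uptake and oxidation (Ppard, 1.47, and Acadvl, 1.26). The sirtuin and AMPK list of 20 genes had no call in limma, and Sirt1 was at a median of 2.83 and 6.52 CPM (0.95, adjusted p = 0.321). Also without a call in limma were 24 genes of the integrated stress response, 14 heat shock genes, 6 of MHC class II and 4 aryl hydrocarbon receptor targets. The pool term called 3 genes of the integrated stress response higher. Naaa, which degrades a lipid amide, had a difference of 0.45 (adjusted p = 0.753).

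To separate the arms of the response without using LPS cultures, genes were sorted by what interferons and the TLR2 ligand P3C did at 24 h. The interferon class rose at least 1 on the log2 scale with IFNa and IFNb and not with P3C, the TLR2 class with P3C and neither interferon, and the shared class with all 3. Of 360 tested genes of the interferon class, 75 were called lower with resveratrol (20.8%) and none higher, and the median was -0.79. Of 440 in the TLR2 class, 10 were called lower and 9 higher, and the median was 0.02. Of 56 in the shared class, 7 were lower and none higher, with a median of -0.73. The share called lower was 2.27% in the TLR2 class, against 1.35% of all genes. Under the pool term 124 genes of the interferon class were lower and none higher, and 21 of the TLR2 class were lower and 15 higher. When a class needed a rise of at least 2, the TLR2 class held 164 genes, with a median of -0.14. Of these, 7 were lower (4.27%, against 1.35% of all genes) and 2 higher. The pool term gave 17 lower and 4 higher, and equal medians 11 lower and 0 higher. At that threshold the interferon class held 183 genes, of which 54 were lower (29.5%) and none higher, with a median of -1.07. The pool term gave 95 lower and 0 higher there. For a rise of at least 1, the medians of the interferon and TLR2 classes were -0.74 and -0.03 within plate 1 and -0.80 and 0.06 within plate 2. With the pool term they were -0.75 and -0.02. Among cultures of at least 2.5 M reads they were -0.61 and 0.12. The median of this TLR2 class had the other sign in 5 of 14 settings. With a rise of at least 2, the TLR2 class median was negative in the main fit and changed sign in 0 of the 14. That of the interferon class changed sign in 0 of the 14 at either threshold. Classes share the untreated baseline with other comparisons but no LPS culture.

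**Figure D3:**
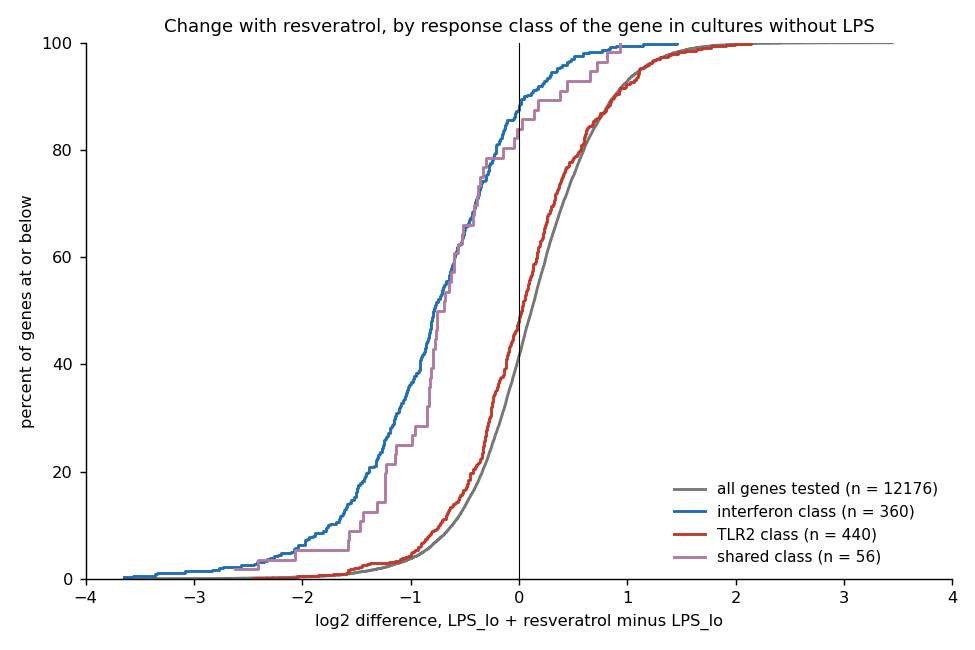
Cumulative share of genes (percent) against the log2 difference between LPS_lo + resveratrol and LPS_lo, for the interferon class (360 genes), the TLR2 class (440), the shared class (56) and all 12176 genes. The curve of the TLR2 class runs close to that of all genes (medians 0.02 and 0.12), and those of the interferon and shared classes lie to the left (medians -0.79 and -0.73).

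The called genes of the interferon class included, beside those above, the death ligand Tnfsf10 (-1.58), the helicase Mov10 (-1.55) and the receptor gene Fcgr4 (-1.81), and those of the shared class included the checkpoint ligand Cd274, also called PD-L1 (-1.57). In the TLR2 class the largest called fall was Serpinb2 (-2.05), an inhibitor of plasminogen activators, and Tnfaip2 (2.00) was among the called rises. The most positive difference in that class, called or not, was 2.15. As a mean over its genes relative to untreated cultures, the interferon class was at 1.13, 1.72 and 1.91 with LPS_lo and at 0.28, 0.92 and 1.22 with resveratrol on the log2 scale. The groups overlapped only through LPS_lo replicate 4. The TLR2 class was at 0.78, 1.18 and 1.36 and at 0.71, 1.17 and 1.54, and its groups overlapped.

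**Figure D4:**
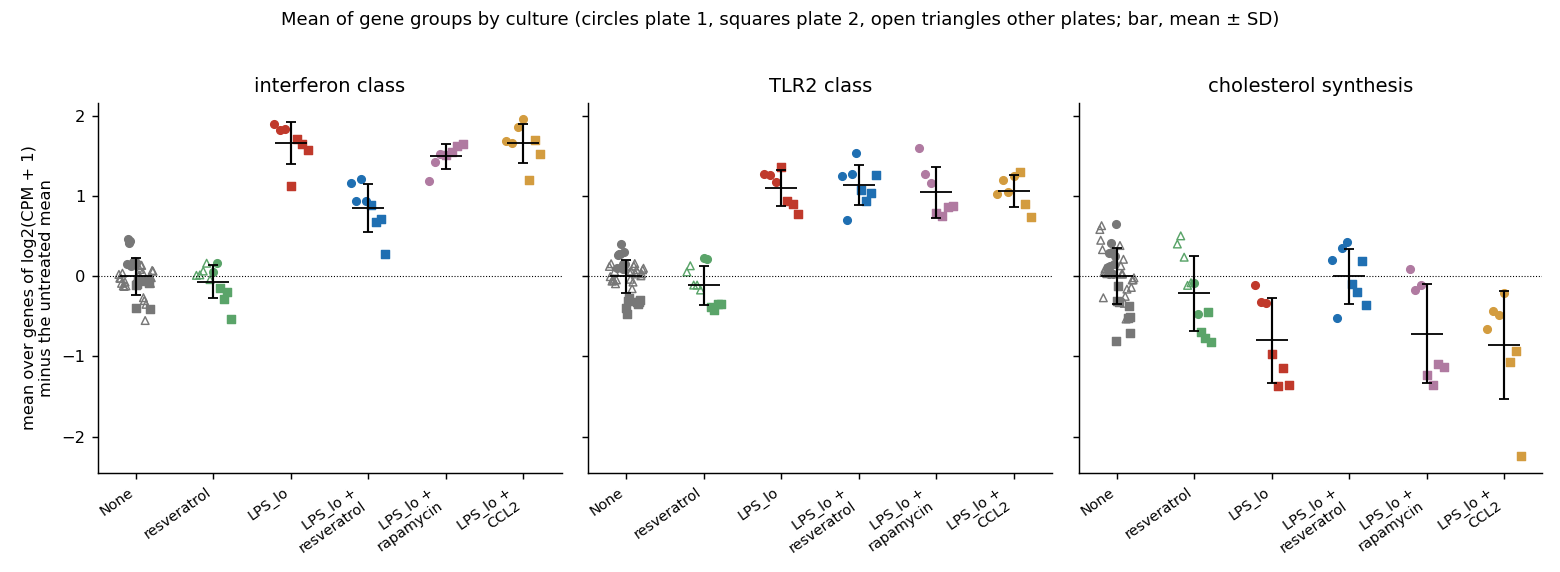
Mean log2 level of the interferon class, the TLR2 class and the cholesterol synthesis list in each culture relative to the mean of untreated cultures, for 6 groups at 24 h. In the interferon class the LPS_lo + resveratrol cultures lie at 0.28 to 1.22 and the LPS_lo cultures at 1.13 to 1.91, and in cholesterol synthesis they lie at -0.52 to 0.43 and -1.36 to -0.11.

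Resveratrol left part of the LPS response in place. LPS_lo alone raised 1095 genes (8.99%) and lowered 2899 (23.8%) against the untreated cultures, or 1850 and 1708 after scaling to equal medians. The main fit held no term for plate or cell lot, and with the cell lot as a term the counts were 1344 and 2439. The antiviral list had a median of 3.42 above untreated with LPS_lo and of 2.31 with LPS_lo + resveratrol, and 45 and 44 of its 47 genes were called higher. The interferon class stood at 1.46 and 0.74, and the NF-kB list at 2.34 and 2.18. Il1rn was still 1.30 ± 0.25 above untreated with resveratrol (adjusted p = 2.78e-05, limma), against 4.94 without it. Pfkfb3 and Stat3 differed from untreated by -0.01 and 0.13 with resveratrol, against 1.96 and 1.16 with LPS_lo alone. The cholesterol synthesis list was at -0.72 with LPS_lo and -0.04 with resveratrol, and the homeostatic list at -1.68 and -1.23. Both contrasts use the same 40 untreated cultures, so their values are set side by side without a test between them.

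Without LPS, resveratrol at 50 uM raised 67 genes (0.550%) and lowered 182 (1.49%) against untreated cultures, or 110 and 253 with the cell lot as a term. The antiviral list then had a median of -0.24, with 4 of 47 called lower, and the interferon class one of -0.03. Of 37 proliferation genes, 25 were called lower by resveratrol alone and none higher, with a median of -1.48, and their median with LPS_lo alone was -1.85. The effect of resveratrol with LPS_lo differed from its effect without LPS in 184 genes, with 106 more positive under LPS (0.871%) and 78 more negative (0.641%). After scaling to equal medians these counts were 85 and 129, so the balance depends on the scaling. With the cell lot as a term they were 183 and 156. Among the genes more negative under LPS were Ccl2 (-3.78 ± 0.70, adjusted p = 0.00098), Nos2 (-3.65 ± 0.81, adjusted p = 0.00627), Thbs1 (-3.44 ± 0.70, adjusted p = 0.00216) and Il1rn (-3.39 ± 0.40, adjusted p = 9.81e-09), all in limma. Untreated medians of Ccl2 and Nos2 were 7.65 and 2.64 CPM. Among the genes more positive under LPS were Tcaf1 (3.06), Bmf (2.53), Sort1 (2.29) and the cholesterol genes Fdft1 (2.24), Mvk (1.81), Fdps (1.73), Msmo1 (1.57) and Srebf2 (1.52). In the interferon class 31 genes were more negative under LPS and none more positive. The IgG receptor genes Fcgr2b (-2.12) and Fcgr3 (-1.45) rose with resveratrol alone, by 1.23 and 0.93, and had differences of -0.88 and -0.52 with LPS_lo that did not pass.

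**Figure D5:**
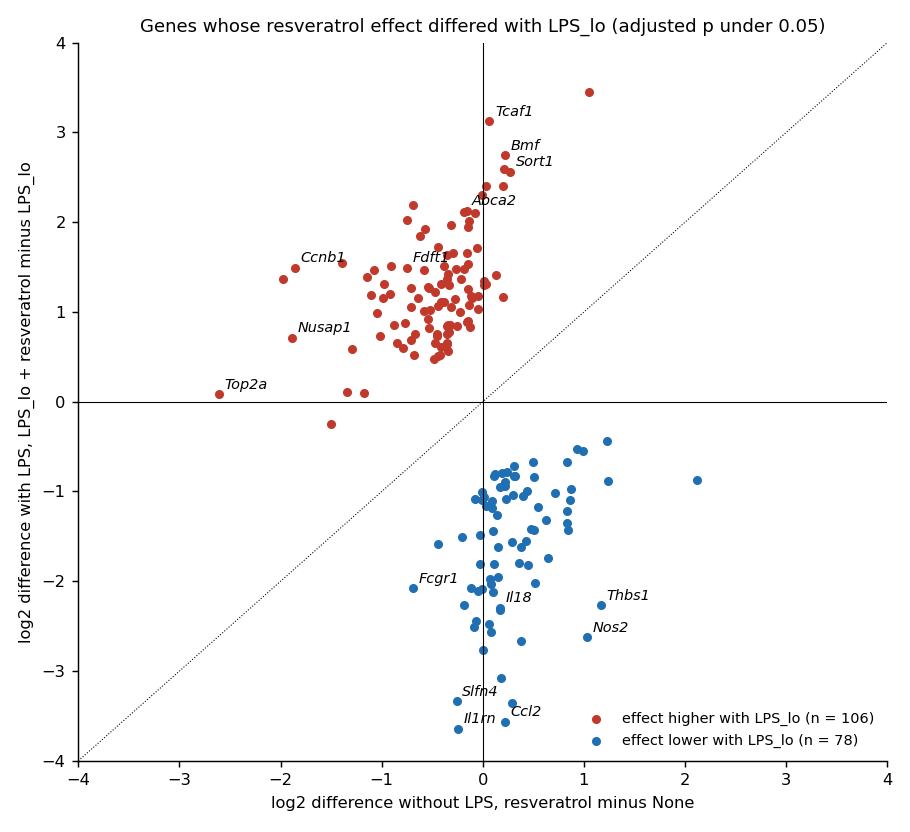
Log2 difference made by resveratrol with LPS_lo (vertical) against that made without LPS (horizontal) for the 184 genes where these differed in limma. Of these genes 106 lie above the line of equal effects and 78 below it, and Il1rn lies at -3.64 with LPS_lo and -0.25 without.

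Other agents added to the same dose of LPS gave different values. With LPS_lo + CCL2, 0 genes were called against LPS_lo in limma, with 606 at an unadjusted p under 0.05. LPS_lo + resveratrol differed from LPS_lo + rapamycin in 516 genes, with 379 higher (3.11%) and 137 lower (1.13%), a balance that turned to 149 higher and 328 lower after scaling to equal medians. In that direct comparison 61 of the 360 interferon class genes were lower and none higher, with a median of -0.63, and 9 of the 47 antiviral genes were lower and none higher. Il1rn was at 217, 244 and 394 CPM with rapamycin, above every resveratrol culture, and the difference was -2.41 ± 0.34 (adjusted p = 7.76e-07, limma). Of the 27 NRF2 targets, 13 were higher than with rapamycin and none lower. Rapamycin itself, against LPS_lo, gave the list a median of -0.20 and lowered 1 member, Hmox1 (-2.23, adjusted p = 2.03e-06, limma). Over all 12176 genes it raised 27 and lowered 40. Those raised included AL670236.1 (2.51, adjusted p = 0.00903, limma) and Tcaf1 (1.94, adjusted p = 0.03997, limma), which also led the rises with resveratrol. Of the 10 largest rises with resveratrol, only Bmf, Sort1, Tnfaip2 and Neat1 were called higher than with rapamycin. Against LPS_lo + CCL2 as a second set of LPS cultures, 295 genes were called, and the interferon class had a median of -0.72.

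The coexpression modules of the study were built on cultures of this series, so their counts are not independent evidence. Of all genes tested, 1.35% were called lower and 2.00% higher. In BR_turquoise 41 of 148 tested genes were called lower (27.7%) and none higher (median -0.92), and in BR_blue 13 of 45 (28.9%, median -0.80). The study names PI_blue and CY_yellow with these among the modules most affected by resveratrol. Here PI_blue had 1 of 20 lower (median -0.59) and CY_yellow 3 of 28 (median -0.23). Among cultures of at least 2.5 M reads the CY_yellow median was 0.14. In CY_red 4 of 29 were lower, and in CY_brown and CY_turquoise 0 of 33 and 2 of 38, with medians of 0.08 and -0.13. The pool term called 5 genes lower in each of these 3 CY modules. In TQ_turquoise 14 of 143 were called higher (9.79%) and 1 lower, with a median of 0.46.

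Microglial identity and other cells were checked with marker lists. All 12 microglia and macrophage markers were tested. Of these, 2 were called higher (Csf1r and Trem2) and 1 lower (Itgam, which encodes CD11b, -1.0). With the pool term on the 2 plates alone, 1 was called higher and 1 lower. Their summed level was 3236 to 5997 CPM with LPS_lo and 5952 to 8015 CPM with LPS_lo + resveratrol. In untreated cultures its median was 11831 CPM. Of the 10 markers of T, B and NK cells, 9 were at 0 in both groups. No marker of astrocytes, oligodendrocytes, neurons, endothelial cells, fibroblasts, neutrophils or perivascular macrophages was called in limma, while with the pool term 1 was called higher, Fn1 of the fibroblast list (1.38). The summed endothelial and pericyte markers reached 497 CPM with resveratrol and 63.2 CPM with LPS_lo, with Cldn5 and Tek at 0, and the fibroblast sum had medians of 93.5 and 16.3 CPM, with Lum and Pdgfra at 0. Their part in the rises was not tested.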

How the data were processed

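RNA of cultured microglia was sequenced as 3′-end libraries made from barcoded pools. Per the labels and the study's methods, reads were assigned to Ensembl transcripts by the authors (Salmon 0.7.1), summed per gene, and deposited as CPM, which the study calls TPM, after shallow cultures were removed. The labels name another build (mm8), and the values carry no coordinates. Whole reads could not be recovered: between 71.2% and 89.1% of the low values of a culture lay within 0.1 of a whole read. The 366 columns of other time points were not used here.

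Values were compared as log2(CPM + 1) with limma 3.58.1 in R 4.3.3 (moderated, with a trend), 2-sided, over genes above 5 CPM in at least 4 of 80 cultures of 6 groups. Other steps used Python 3.11.15 with pandas 2.3.3, and the fit was tested on simulated data. There it called 3 of 67 genes changed by 0.5 on the log2 scale, 19 of 67 changed by 1 and 46 of 66 changed by 2. It made 3 false calls among the 12176 genes simulated. A gene without a call can therefore still have changed. A fold on this scale understates the change of low genes. Classes came from a separate fit of 64 cultures. The members and lists were chosen with earlier results of these data known. Named genes were the 10 largest rises and falls among called genes without overlap, the highest and most changed members of each list, and a preset set of 21; other genes named were chosen after their values were seen. Some genes are not reported here. Alternatives varied the pseudocount, filter, covariates, scaling, test and cultures.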

Additional observations from a re-analysis of the deposited data

Results flagged for a closer look

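Among 40 named genes, 80 groups of cultures were examined for a value that stood apart, and 10 were found by Dixon's test. Chance gives about 1 in 20 groups where these are independent. The genes were measured in the same cultures, so the count cannot be set against that rate. LPS_lo replicate 4, at 18.9 M reads the deepest of its group, was the lowest for Ccl2 (92.3 CPM), Isg15 (281 CPM) and Mx1 (113 CPM) and the highest for Nqo1 (3.64 CPM, with the other cultures of the group at 0). LPS_lo + resveratrol replicate 8 was the lowest of its group for Fcgr1 (35.2 CPM) and Mx1 (12.5 CPM). Single values also stood apart for Slc41a3 (highest with resveratrol, 263 CPM), Mlkl (highest with LPS_lo, 198 CPM), Sirt1 (lowest with resveratrol, 0.424 CPM) and Irak3 (lowest with resveratrol, 31.95 CPM).

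For 15 of the named genes the difference made by resveratrol was not the same with and without LPS_lo by the interaction term of limma. It was more positive with LPS for AL670236.1 (2.40), Tcaf1 (3.06), Bmf (2.53), Sort1 (2.29), Abca2 (2.29), Map4k2 (2.29) and Slc41a3 (1.77), on the log2 scale. It was more negative for Il1rn (-3.39), Ccl2 (-3.78), Slfn4 (-3.08), Il18 (-2.47), Thbs1 (-3.44), Fcgr1 (-1.39), Trim30d (-2.12) and Nos2 (-3.65).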

How the results depend on the processing

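The comparison of LPS_lo + resveratrol with LPS_lo gave 408 genes. Fitting only those groups gave 150 (60 higher, 90 lower) and an exact rank-sum test 95 (38 and 57). The library pool as a term gave 865, the cell lot as a term 763 (457 and 306), and plate 1 alone 696 (386 and 310). Leaving out each culture in turn gave 245 (without LPS_lo replicate 7) to 459. The count was within 1.5 times the first under pseudocounts of 0.5 and 5, no filter or a stricter one, the plate as a term, equal medians, a log2 difference of at least 1, LPS_lo + CCL2 as the comparison group, plate 2 alone (439), cultures of at least 2.5 M reads (496, with 367 higher and 129 lower) and the pool term on the 2 plates (308, with 127 higher and 181 lower). The single plates, the depth minimum, the pool term on the 2 plates, and the pool term and equal medians for other comparisons were chosen after seeing the data.

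With the pool term, resveratrol against untreated went from 249 to 723 genes, LPS_lo + resveratrol against LPS_lo + rapamycin from 516 to 1266 and against LPS_lo + CCL2 from 295 to 951, and the difference with and without LPS from 184 to 648. The median of the shared class went from -0.73 to -1.10 when a class needed a log2 rise of at least 2, which left 6 genes, and that of the TLR2 class from 0.02 to -0.14, on 164 genes. The cause was not tested for these shifts. No result reversed its direction with a call.

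Among the called named genes, 299 values kept their call and direction under these alternatives and 15 lost the call. These were Tcaf1, Abca2, Map4k2, Slc41a3 and Il18 against LPS_lo + CCL2, Nos2 in the rank-sum test, Map4k2 and Slc41a3 with the pool term on the 2 plates, Thbs1 and Trim30d with the depth minimum, Slc41a3, Mlkl and Sirpb1c on plate 1, and Map4k2 and Trim30d on plate 2. With a culture left out 314 kept it and 1 lost it (Nos2, without LPS_lo replicate 7). Among the other named genes 50 values gained a call. No paired analysis was possible because the titles number libraries and give no replicate numbers shared between groups. The plate and the cell lot, which the groups share, entered as terms instead (610 and 763 genes). Depth limits genes of a few CPM, which rest on few reads in the shallowest LPS_lo cultures.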
